A study of Homo sapiens with 6 samples.

Results

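The small proline-rich (SPRR) genes encode short proteins that are built into the cornified envelope of squamous epithelia. This account covers SPRR1A, SPRR1B, SPRR2A, SPRR2B, SPRR2D, SPRR2E, SPRR2F, SPRR2G, SPRR3 and SPRR4, which were taken by gene symbol from the deposited expression table. All 10 were found among its 46427 genes. In 3 biological replicates, VK2/E6E7 cells received 1e8 CFU/mL of the lactic acid bacterium Lactobacillus salivarius HHuMin-U, here called HMU, for 6 h. The controls were VK2/E6E7 cells given PBS for 6 h, again in 3 replicates. VK2/E6E7 is a human vaginal epithelial line immortalised with papillomavirus E6 and E7 genes. Its genotype is labelled WT in both groups, and both were grown in serum-free keratinocyte medium with EGF, bovine pituitary extract and antibiotics. All 6 libraries come from this 1 line, so the replicates measure the spread between its cultures. The comparison of HMU with PBS asks what the bacterium does to transcript levels in these cells.

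SPRR proteins carry a row of short proline-rich repeats between glutamine- and lysine-rich ends. Transglutaminases join those ends to involucrin, loricrin and other envelope proteins, and the SPRR proteins act as cross-bridges that set the stiffness of the envelope. Stratified mucosae such as those of the vagina, mouth and oesophagus use them heavily, and stressed or inflamed epithelia are known to raise several of them. The genes lie side by side on chromosome 1 in the epidermal differentiation complex, together with those for involucrin, loricrin, filaggrin and many S100 proteins.

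On GRCh38 (RefSeq annotation) the 10 genes spanned 234529 bases of chromosome 1. SPRR4 (gene ID 163778, 152968750 to 152972574), SPRR1A (6698, 152984081 to 152985814), SPRR3 (6707, 153001749 to 153003856) and SPRR1B (6699, 153031203 to 153032900) lie on the plus strand. The SPRR2 copies follow on the minus strand in the order SPRR2D (6703, 153039732 to 153041120), SPRR2A (6700, 153056120 to 153057512), SPRR2B (6701, 153070226 to 153087799), SPRR2E (6704, 153093135 to 153094526), SPRR2F (6705, 153112121 to 153119468) and SPRR2G (6706, 153149582 to 153203278). The SPRR2 copies are so alike that short reads cannot always be given to 1 of them. Over the coding sequence (GENCODE 29, GRCh38), SPRR2A was 99.5% identical to SPRR2B, 98.2% to SPRR2D, 97.7% to SPRR2E, 96.8% to SPRR2F and 86.6% to SPRR2G. SPRR1A and SPRR1B were 96.3% identical, while SPRR3, with 510 coding bases against 219 in SPRR2A, was 39.6% identical to SPRR2A.

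The start of the coding sequence shows how close the copies are. The opening 90 coding bases of SPRR2B, SPRR2D and SPRR2E were the same as those of SPRR2A at every position. The stretches below, written 5′ to 3′ on the coding strand, are at chr1:153056646-153056735 for SPRR2A, chr1:153112644-153112733 for SPRR2F and chr1:153150021-153150110 for SPRR2G, and capitals mark the bases that differ from SPRR2A.
SPRR2A: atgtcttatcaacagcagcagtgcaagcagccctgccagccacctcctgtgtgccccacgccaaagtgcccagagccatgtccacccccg
SPRR2F: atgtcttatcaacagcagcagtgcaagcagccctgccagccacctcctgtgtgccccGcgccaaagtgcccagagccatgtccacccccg
SPRR2G: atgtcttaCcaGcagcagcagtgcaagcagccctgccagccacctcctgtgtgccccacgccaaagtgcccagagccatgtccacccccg
SPRR2F differed at 1 of the 90 bases and SPRR2G at 2. Among all 100-base words of the GENCODE 29 transcripts, 20.3% of those of SPRR2A also occurred in another SPRR transcript, as did 18.1% for SPRR2B, 11.3% for SPRR2E and 3.74% for SPRR2D. For the other 6 members that share was 0%, although the SPRR1A transcript in this annotation holds the coding sequence alone. With 50-base words, 32.7% of those of SPRR2A and 32.0% of those of SPRR2B were shared, against 23.4% for SPRR2E, 19.3% for SPRR2D, 18.2% for SPRR2F, 8.29% for SPRR2G, 11.3% for SPRR1A, 4.38% for SPRR1B and 0% for SPRR3 and SPRR4. No source used here states how the authors' counting treated reads with several matches, so values of single SPRR2 copies, SPRR2A, SPRR2B and SPRR2E above all, carry that uncertainty.

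Total counts were 64292566 to 65957584 per library. HMU replicate 2 stood apart from the other HMU libraries, with a chi-square over genes, divided by its degrees of freedom, of 69.7 and 120 against them, where the other pairs of like-treated libraries gave 5.15 to 14.6. Fold changes, shares and list counts were therefore also computed without it. The 15 markers of squamous epithelium summed to 79610 to 97165 counts per 1000000 (CPM) in HMU libraries and 79506 to 80554 CPM in PBS libraries, and KRT5, the basal keratin, led them with 37375 and 34973 CPM. Single markers moved more than that sum. At an edgeR adjusted p under 0.05, 7 of the 15 rose, KRT13 most (log2 fold change 1.94). DSG3 (-0.70), PKP1 (-0.63) and DSP (-0.57) fell. Over all genes tested, 24.8% rose and 24.9% fell at that threshold. Markers of other cell types summed to at most 119 CPM in HMU and 140 CPM in PBS libraries for fibroblasts (COL1A1 leading with 96.1 and 117 CPM). The sums were 2.63 to 3.49 against 1.08 to 1.22 CPM for endothelium (led by VWF), 8.38 to 11.5 against 7.97 to 8.85 CPM for leukocytes (led by CD14 with 6.62 CPM in HMU and by CSF1R with 6.21 CPM in PBS libraries) and 2.52 to 3.43 against 3.58 to 4.07 CPM for glandular epithelium (led by PAX8 with 1.52 CPM in HMU and by FOXA2 with 2.91 CPM in PBS libraries). Within these lists CD14 (1.496 CPM with PBS) and PAX8 (0.681 CPM with PBS) rose, while CSF1R (2.64 CPM after HMU) and FOXA2 (1.34 CPM after HMU) fell, and CDH5 of endothelium had 0.977 CPM after HMU and 0 with PBS. CD2 of the leukocyte list and TFF1, TFF3 and PAEP of the glandular list had 0 counts in every library. The part of these shifts in the SPRR values was not tested.

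All 10 SPRR genes were higher after HMU, in every library and by the quasi-likelihood F test of edgeR, with p-values adjusted by Benjamini-Hochberg over the 17990 genes tested. The rises ran from 1.82-fold for SPRR3 to 67.4-fold for SPRR2F. The median log2 fold change of the family was 4.11, where that of all genes tested was -0.0025. A gene was called at an adjusted p under 0.05, and 24.8% of all genes tested were called higher and 24.9% lower, so a called rise by itself is common in this comparison. At least a 2-fold rise was found for 9 members and for 8.07% of all genes, at least a 4-fold rise for 8 members and 3.05% of genes, and at least an 8-fold rise for 6 members and 1.49% of genes. The 3 HMU values lay above all 3 PBS values for all 10 members and for 30.3% of all genes tested. In bulk RNA, a higher level per cell and a larger share of cells that make the transcript cannot be told apart.

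**Figure D1:**
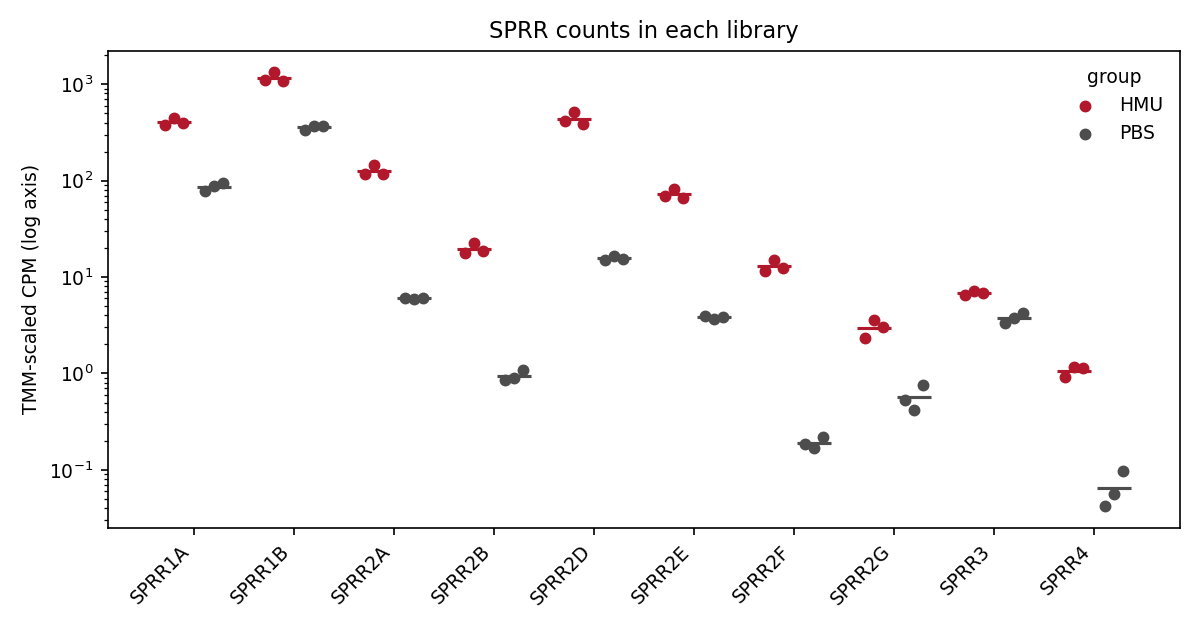
Counts per 1000000 after TMM scaling (CPM, log axis) of each SPRR gene in the 3 HMU libraries (red) and the 3 PBS libraries (grey), with a line at each group's mean. The groups do not overlap for any of the 10 genes, and the gap is widest for SPRR2F and narrowest for SPRR3.

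A sum over the family is free of how reads were split among its members, though not of reads dropped for matching several places or given to SPRR2C. In sum, SPRR transcripts reached 2107, 2557 and 2071 CPM in HMU replicates 1 to 3, against 446, 486 and 491 CPM in PBS replicates 1 to 3. The lowest HMU library thus held more than 4 times the CPM of the highest PBS library. The fitted log2 fold change of the sum was 2.24 ± 0.098 (SE), or 4.74-fold, with an edgeR adjusted p of 2.8e-06. SPRR genes took 0.203% ± 0.0215 of all counts after HMU and 0.0522% ± 0.0028 with PBS (SD, n = 3). Their TPM, the deposited measure scaled by transcript length and library, summed to 6199 ± 304 after HMU and 1770 ± 106 with PBS. HMU replicate 2 was the highest library for 10 of 10 members by CPM and for 7 of 10 by TPM. Without it the log2 fold change of the sum was 2.14.

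The SPRR2 copies made the steepest rise. Their summed counts came to 631, 782 and 601 CPM in HMU replicates 1 to 3 and to 26.7, 27.7 and 27.5 CPM in PBS replicates 1 to 3, a log2 fold change of 4.62 ± 0.12 (SE), or 24.6-fold (edgeR adjusted p = 3.2e-07). The PBS libraries were close to each other, and the HMU spread came mainly from replicate 2.

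SPRR2D held most of the SPRR2 counts. It had 415, 514 and 384 CPM in HMU libraries and 15.1, 16.6 and 15.5 CPM in PBS libraries, which is 27.8-fold higher (log2 fold change 4.80 ± 0.13 SE, edgeR adjusted p = 3.6e-07). By fitted log2 fold change it was gene 99 of the 17990 tested.

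SPRR2A, whose mouse counterpart has been reported to kill Gram-positive bacteria in gut and skin, had 116, 144 and 118 CPM in HMU libraries. With PBS it had 6.01, 5.98 and 6.07 CPM. The PBS replicates of SPRR2A were nearly equal, and most of the spread lay in the HMU libraries. The log2 fold change was 4.39 ± 0.11 (SE), 20.9-fold, with an edgeR adjusted p of 3.1e-07.

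SPRR2E had 69.2, 81.7 and 65.8 CPM after HMU, against 3.99, 3.70 and 3.84 CPM with PBS (log2 fold change 4.23 ± 0.11 SE). SPRR2B, nearly identical to SPRR2A, had 17.5, 22.5 and 18.7 CPM after HMU, against 0.848, 0.894 and 1.08 CPM with PBS (log2 fold change 4.38 ± 0.15 SE). SPRR2A, SPRR2B and SPRR2E thus rose by much the same factor, and the ratio of SPRR2A to SPRR2B counts overlapped between the groups, at 2.68 ± 0.035 log2 units in HMU and 2.68 ± 0.17 in PBS libraries (SD, n = 3). The log2 ratio of SPRR2A to SPRR2E did not overlap, at 0.80 ± 0.051 in HMU and 0.65 ± 0.051 in PBS libraries. The part of shared reads in these like rises was not tested.

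SPRR2F was the scarcest SPRR2 copy in PBS cultures and had the largest rise of the family. It had 688, 866 and 748 counts in HMU libraries and 13, 12 and 16 counts in PBS libraries, or 11.6, 15.1 and 12.3 CPM against 0.184, 0.168 and 0.222 CPM. The log2 fold change was 6.07 ± 0.18 (SE), with an edgeR adjusted p of 5.1e-07, and only 0.306% of genes tested had a larger one. On log2(FPKM + 1), which shrinks the folds of low genes, it no longer led, with 3.60 against 4.45 for SPRR2D. Relative to SPRR2D in the same library, SPRR2F counts rose by 1.25 log2 units (the log2 ratio of SPRR2D to SPRR2F was 5.07 ± 0.10 in HMU and 6.32 ± 0.24 in PBS libraries), and relative to SPRR2A by 1.66. Those ratios did not overlap between the groups and do not depend on library scaling. They do depend on how shared reads were counted, and rest on 12 to 16 SPRR2F counts per PBS library.

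SPRR2G, the most divergent copy and the last in the row, responded less. It had 137, 206 and 185 counts in HMU libraries and 38, 30 and 55 in PBS libraries, which is 2.31, 3.59 and 3.05 CPM against 0.537, 0.419 and 0.763 CPM. Both groups were spread widely, though they did not overlap. The log2 fold change was 2.37 ± 0.26 (SE; edgeR adjusted p = 0.00024), and the log2 ratio of SPRR2F to SPRR2G stood 3.65 higher in HMU than in PBS libraries. The transcribed pseudogene SPRR2C, no member of the family list, had 28, 64 and 53 counts after HMU and 5, 6 and 2 counts with PBS.

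The SPRR1 genes were the most abundant of the family and rose less than most SPRR2 copies. SPRR1B, also called cornifin and used as a marker of squamous metaplasia in airway epithelium, had 1092, 1323 and 1069 CPM in HMU libraries and 337, 367 and 365 CPM in PBS libraries. That is a log2 fold change of 1.70 ± 0.096 (SE), 3.26-fold, with an edgeR adjusted p of 9.2e-06. SPRR1A had 376, 443 and 392 CPM after HMU, against 78.1, 87.3 and 93.5 CPM with PBS, a log2 fold change of 2.23 ± 0.098 (SE; edgeR adjusted p = 2.7e-06). Although the pair share 96.3% of their coding sequence, SPRR1A rose more: the log2 ratio of SPRR1A to SPRR1B counts was -1.52 ± 0.067 in HMU and -2.05 ± 0.075 in PBS libraries, with no overlap.

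SPRR3, the SPRR protein of oral and oesophageal mucosa, changed least. It had 388, 416 and 415 counts after HMU and 238, 270 and 303 counts with PBS, or 6.55, 7.24 and 6.84 CPM against 3.36, 3.77 and 4.202 CPM. The groups did not overlap, and the log2 fold change was 0.86 ± 0.11 (SE; edgeR adjusted p = 0.0006). The size of this rise depended on the scaling: without TMM, scaled by library size alone, it was 0.58 in log2 units (edgeR adjusted p = 0.0031), and on log2(TPM + 1) it was 0.44 (limma adjusted p = 0.0053).

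SPRR4, a member described in ultraviolet-exposed skin, was the rarest. It had 54, 67 and 69 counts in HMU libraries and 3, 4 and 7 in PBS libraries. The log2 fold change was 3.998 ± 0.31 (SE; edgeR adjusted p = 4.2e-05), with 14 counts in all PBS libraries together. It passed the filter on low counts, as did all 10 members.

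Per transcript length, the order of the family changed between the groups. In deposited TPM after HMU, SPRR1B was highest (3330 ± 162), followed by SPRR2D (1145 ± 90.9), SPRR1A (1096 ± 49.9), SPRR2A (330 ± 20.2), SPRR2E (189 ± 7.70), SPRR2B (51.7 ± 3.99), SPRR2F (34.2 ± 2.78), SPRR3 (13.3 ± 0.506), SPRR2G (8.96 ± 1.60) and SPRR4 (2.46 ± 0.433). SPRR2D and SPRR1A overlapped there. With PBS the order in TPM was SPRR1B (1356 ± 73.5), SPRR1A (310.1 ± 30.4), SPRR2D (54.7 ± 2.80), SPRR2A (20.9 ± 0.321), SPRR2E (13.3 ± 0.417), SPRR3 (9.57 ± 0.834), SPRR2B (3.27 ± 0.462), SPRR2G (2.27 ± 0.715), SPRR2F (0.650 ± 0.111) and SPRR4 (0.146 ± 0.124), all SD with n = 3. Here SPRR2B and SPRR2G overlapped, and no other neighbours did in either group. Among all 46427 genes ranked by mean TPM, SPRR1B stood at place 29 after HMU and 90 with PBS, and SPRR2D at place 119 after HMU and 2643 with PBS.

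The make-up of the SPRR transcripts shifted from almost pure SPRR1 towards SPRR2. The SPRR2 copies together held 28.4% ± 0.733 of the summed SPRR TPM in HMU libraries and 5.38% ± 0.178 in PBS libraries, while SPRR1A and SPRR1B together held 71.4% ± 0.715 and 94.1% ± 0.158 (SD, n = 3). SPRR2D alone made up 18.4% ± 0.780 after HMU, against 3.09% ± 0.128 with PBS. SPRR1B fell to 53.7% ± 0.116 of the family in HMU libraries, against 76.6% ± 0.636 in PBS libraries, although its own level rose. The share of SPRR1A did not shift beyond its spread (17.7% ± 0.798 after HMU and 17.5% ± 0.761 with PBS; two-sided exact permutation p = 0.7). For the other shares named here the groups did not overlap, and the two-sided exact permutation p was 0.1, the smallest that 3 libraries against 3 can give (0.12 after Benjamini-Hochberg adjustment over 24 shares). These shares do not depend on library scaling, but they depend on how shared reads were counted.

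**Figure D2:**
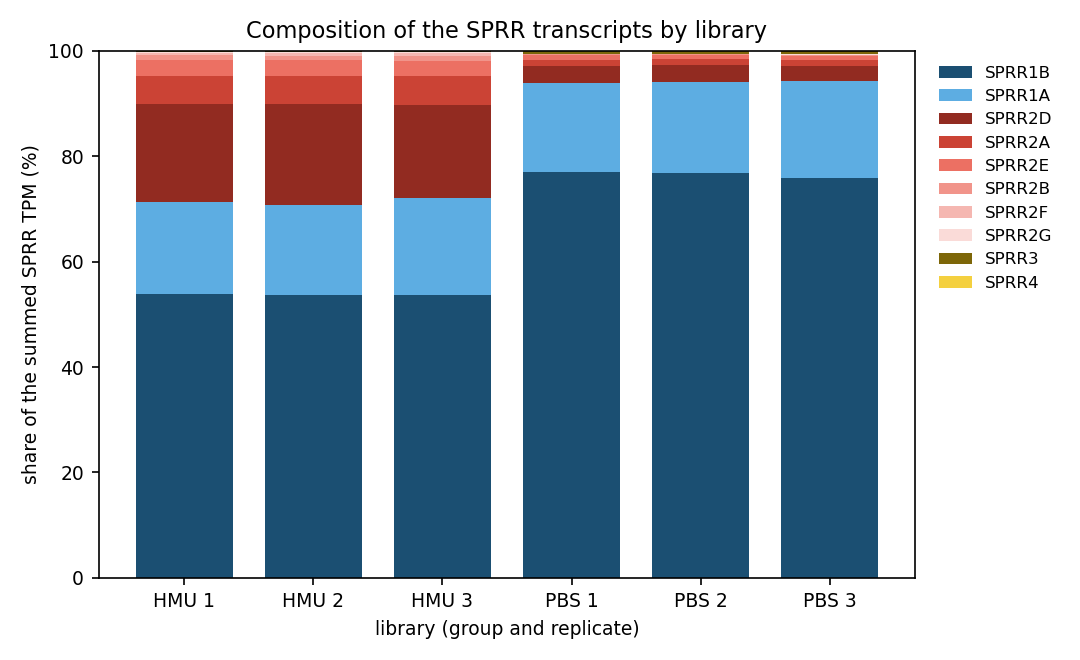
Share of each gene in the summed SPRR TPM (percent, stacked to 100) in the 3 HMU libraries and the 3 PBS libraries. SPRR2 copies (reds) make up 28.4% on average after HMU and 5.38% with PBS, and SPRR1B (dark blue) takes the largest share in every library.

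Pairs of members were also compared by their count ratio within each library. Of 45 pairs, 39 had ratios that did not overlap between HMU and PBS libraries, among them 13 of the 15 pairs of SPRR2 copies. Over all pairs of the genes tested, 61.8% did not overlap, so such a shift in ratio was common in this comparison. The 6 pairs that overlapped were SPRR2A with SPRR2B, SPRR2B with SPRR2E, SPRR1A with SPRR2G, and SPRR4 with each of SPRR2A, SPRR2B and SPRR2E.

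The members were not alone in the epidermal differentiation complex in being higher. From S100A10 to S100A1 the RefSeq annotation lists 62 protein-coding genes, of which 37 had enough counts to be tested. Besides the 10 SPRR genes, 22 of the 27 others rose and 2, TCHH and FLG, fell, where 24.8% of all genes tested were called higher and 24.9% lower. The nearest genes tested on either side were IVL, the involucrin gene, on the SPRR4 side (log2 fold change 4.83) and PRR9 on the SPRR2G side (1.37). Of the genes in between, SPRR5, on the IVL side, was not found by that symbol in the deposited expression table, and LELP1, on the PRR9 side, had 0 counts in every library. The late cornified envelope (LCE) genes were mostly silent: 3 of 18 could be tested, and LCE3E (log2 fold change 3.36 ± 0.22 SE) and LCE3D (3.02 ± 0.27 SE) rose.

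**Figure D3:**
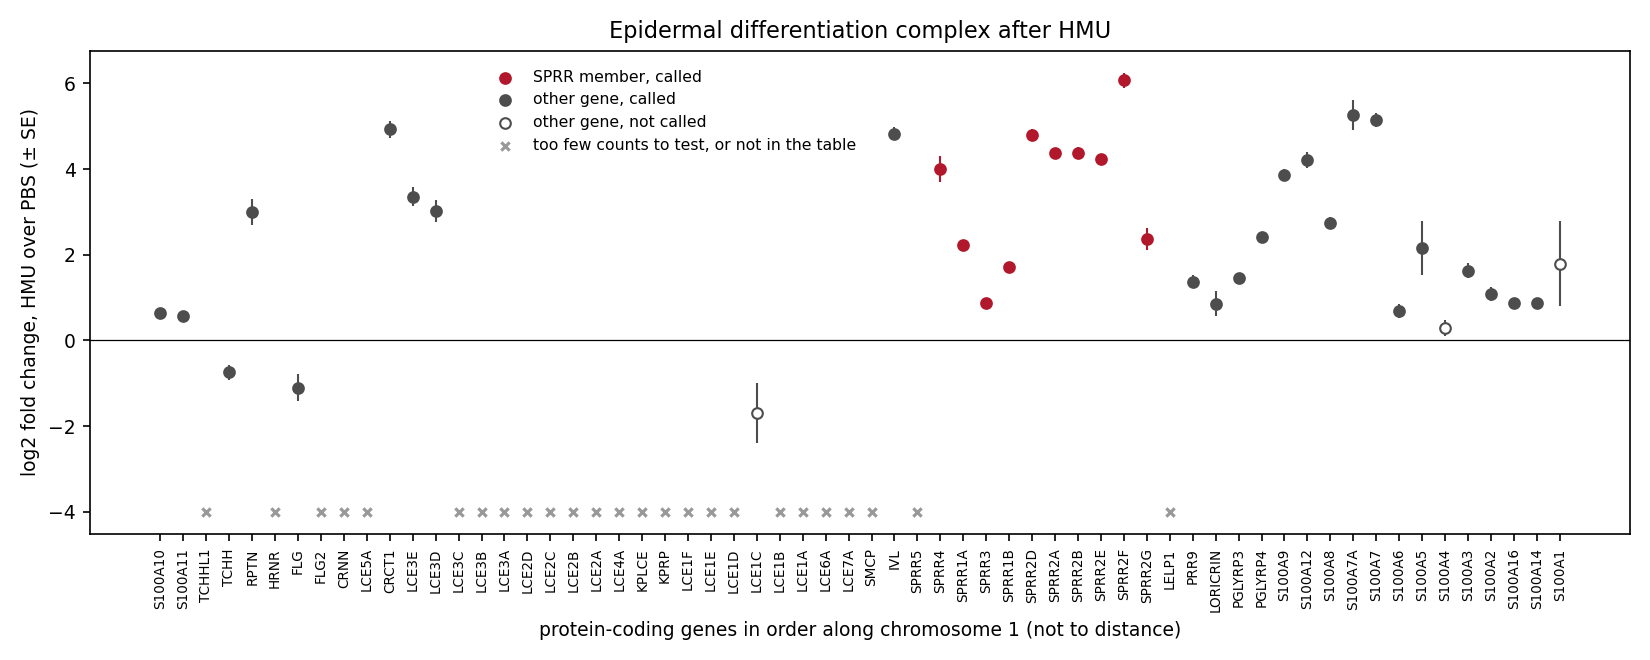
Log2 fold change of HMU over PBS (± SE, edgeR) for the protein-coding genes of the epidermal differentiation complex in their order along chromosome 1, with SPRR genes in red, others in grey, open circles for genes not called and crosses for genes with too few counts or not in the table. Within the SPRR row the value is lowest at SPRR3 (0.86) and highest at SPRR2F (6.07), while the called genes FLG and TCHH and the uncalled LCE1C lie below 0.

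A list of other genes of the complex, most of them already counted above, had 21 of 27 tested members higher and 4 lower. Its median log2 fold change was 1.37. It leaves out the LCE genes and reaches past the bounds used above, where THEM4 (-0.68) and THEM5 (-0.94) fell. S100A7A (5.26 ± 0.36 SE) and S100A7 (5.14 ± 0.16 SE), the psoriasins, changed most in it, and as near-identical neighbours may share reads. It overlaps the list of envelope and plaque proteins outside the SPRR family, of which 12 of 23 tested genes rose and 9 fell, with a median of 0.48. In that list IVL had 205 ± 20.4 CPM in HMU and 7.18 ± 1.08 CPM in PBS libraries (SD, n = 3), and PI3, the elafin gene, whose protein is itself an envelope component, had 639 ± 118 and 23.1 ± 0.942 CPM. The genes that fell, named after their values were seen, included the suprabasal keratins KRT1 (-1.46) and KRT10 (-1.14), the desmosomal cadherins DSG1 (-2.41) and DSC1 (-2.78), and FLG (-1.10). Scaled by library size alone, 11 of the 23 were higher and 10 lower. On log2(TPM + 1) the balance turned, with 8 higher and 11 lower. Beside the counts of both lists in the main fit, 24.8% of all genes tested were called higher and 24.9% lower.

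Of the transglutaminase genes, whose enzymes cross-link SPRR proteins, 3 of 4 rose, where 24.8% of all genes tested were called higher. TGM1, the membrane-bound enzyme of keratinocytes, had 825 ± 18.1 CPM in HMU and 139.5 ± 1.37 CPM in PBS libraries (SD, n = 3; log2 fold change 2.56 ± 0.059 SE, edgeR adjusted p = 2.3e-07), a rise of 5.92-fold. TGM2, the tissue transglutaminase, rose most (log2 fold change 5.33 ± 0.14 SE), followed by TGM5 (3.59 ± 0.21 SE). TGM3 stood at 4.66 ± 0.680 CPM after HMU and 5.24 ± 0.275 CPM with PBS and was not called (edgeR adjusted p = 0.30).

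Promoters of 8 members were found in the RefSeq promoter table (GRCh38.p14), and SPRR2D and SPRR2E were not among them. The 250 bases before each start were searched on both strands for letters bound by factors linked to SPRR genes or to epithelial stress. For SPRR2B, SPRR2F and SPRR2G the start used lies inside the gene span given above. Bases before the upstream end of that span were not searched. The sequences are shown so that a reader can set the start regions of the SPRR2 copies found there side by side with those of the SPRR1 genes and SPRR3. Each is written 5′ to 3′ on the gene's strand, and capitals mark matches to the AP-1 letters TGANTCA, the octamer letters ATGCAAA, the ETS letters GGAAGT, the KLF letters CCACCC (each or its reverse complement) and the TATA letters TATAAA. For the SPRR2 copies, bases -120 to -21 from the start lie at chr1:153057533-153057632 (SPRR2A), chr1:153071632-153071731 (SPRR2B), chr1:153113537-153113636 (SPRR2F) and chr1:153150911-153151010 (SPRR2G), minus strand.
SPRR2A: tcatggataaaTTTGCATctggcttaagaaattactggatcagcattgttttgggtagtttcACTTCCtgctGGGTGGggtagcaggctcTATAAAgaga
SPRR2B: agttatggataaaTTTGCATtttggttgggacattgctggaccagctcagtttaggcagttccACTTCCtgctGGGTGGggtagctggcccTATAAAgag
SPRR2F: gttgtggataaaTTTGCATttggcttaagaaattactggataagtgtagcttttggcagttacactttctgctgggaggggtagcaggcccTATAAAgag
SPRR2G: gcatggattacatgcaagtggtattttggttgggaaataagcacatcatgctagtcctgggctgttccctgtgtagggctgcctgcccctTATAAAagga
SPRR2A, SPRR2B and SPRR2F share an octamer match about 100 bases before the start, which SPRR2G lacks, and SPRR2A and SPRR2B share an ETS and a KLF match nearer to it. For SPRR1A (chr1:152983906-152984060), SPRR1B (chr1:153031028-153031182) and SPRR3 (chr1:153001574-153001728), plus strand, the 155 bases that end at -21 read as follows.
SPRR1A: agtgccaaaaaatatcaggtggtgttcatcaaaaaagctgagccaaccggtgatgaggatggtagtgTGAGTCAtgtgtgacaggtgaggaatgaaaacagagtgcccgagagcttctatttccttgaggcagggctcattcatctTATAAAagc
SPRR1B: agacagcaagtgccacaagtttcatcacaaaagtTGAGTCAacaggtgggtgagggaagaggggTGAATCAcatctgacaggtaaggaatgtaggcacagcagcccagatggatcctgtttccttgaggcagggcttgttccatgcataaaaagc
SPRR3: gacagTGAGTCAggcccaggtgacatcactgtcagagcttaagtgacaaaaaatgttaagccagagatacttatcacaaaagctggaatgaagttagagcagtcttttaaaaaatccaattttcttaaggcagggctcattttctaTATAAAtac
SPRR1A and SPRR3 each show 1 AP-1 match in this stretch, and SPRR1B shows 2 but no match to the TATA letters.

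AP-1 letters were found in 6 of the 8 SPRR promoters and in 6.57% of all 35114 promoters searched over the same length. The matches lay at -197 to -191 in SPRR2A, -196 to -190 in SPRR2F, -180 to -174 in SPRR2G, -108 to -102 in SPRR1A, -170 to -164 in SPRR3, and both -141 to -135 and -111 to -105 in SPRR1B. Octamer letters were found in 3 of the 8 and in 3.94% of all promoters, and TATA letters in 7 of the 8 and in 10.7% of all. ETS letters were found in 4 of the 8, against 19.5% of all, and KLF letters in 6 of the 8, against 31.3% of all. The shorter ETS core AGGAA, which overlaps the ETS letters, was in 8 of 8 and in 56.8% of all. For NF-kB, GGG and CC with 5 bases between them were in 2 of the 8 and in 54.4% of all, those for C/EBP (TTGCNNAA) in 1 of the 8 and in 9.05% of all. No SPRR promoter held TTCNNNGAA (STAT), GAAA followed after 2 bases by GAAA (ISRE) or TGACNNNGC (NRF2) in this window, which 6.57%, 3.02% and 10.9% of all promoters do. The copies are related by descent and so are not separate observations: the SPRR2A and SPRR2F windows were 85.7% identical, SPRR1A and SPRR1B 65.8%, and SPRR2A and SPRR2B 59.9%. Whether any of these letters go with the size of a rise was not tested.

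**Figure D4:**
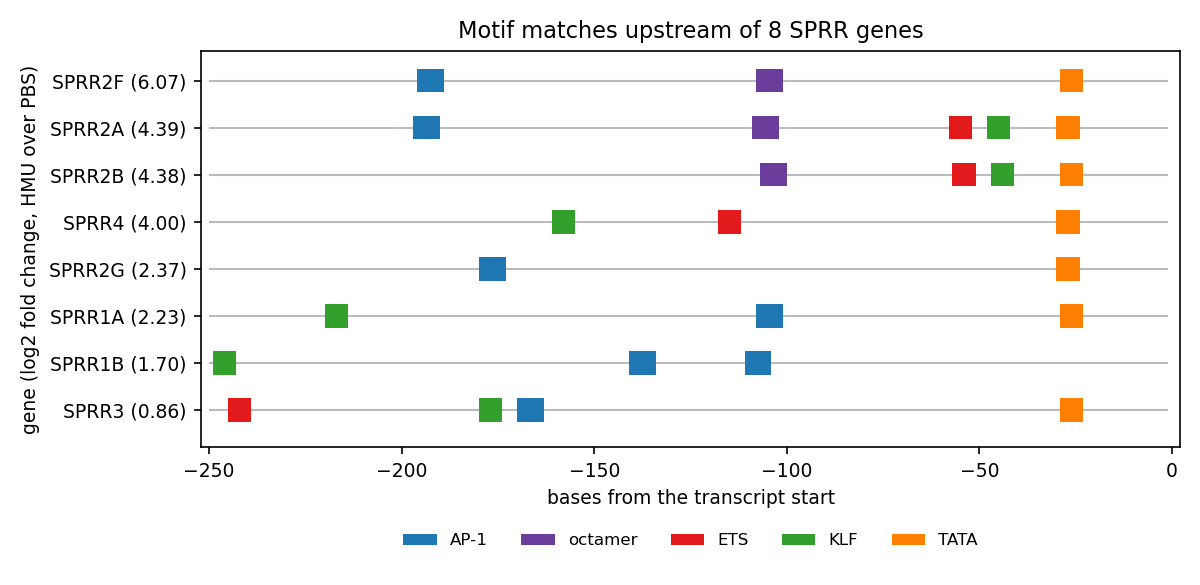
Positions of motif matches in the 250 bases before the start of 8 SPRR genes, ordered from the largest to the smallest log2 fold change (in brackets). Octamer matches stand in SPRR2F, SPRR2A and SPRR2B, which are related copies, AP-1 matches in 6 of the 8 genes, and TATA matches in all but SPRR1B. A link between motif matches and fold change was not tested.

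Genes for transcription factors reported to act on SPRR genes or in squamous differentiation were mixed: of 29 tested, 12 rose and 9 fell. Over all genes tested, 24.8% were called higher and 24.9% lower. The median log2 fold change of the factor genes was 0.18. Their balance depended on the scaling: 8 were higher and 14 lower on log2(TPM + 1), and 11 higher and 13 lower with library sizes only. ELF3, an epithelial ETS factor shown to act on the SPRR2A promoter, had 243 ± 18.5 CPM in HMU and 0.434 ± 0.0681 CPM in PBS libraries (SD, n = 3). The AP-1 subunit gene FOSL1 (log2 fold change 2.35 ± 0.14 SE) and the octamer-binding factor gene POU2F3 (0.80 ± 0.15 SE) also rose, and KLF4 fell (-1.16 ± 0.093 SE). Like the relatives that follow, they were named after their values were seen. FOS (0.30), JUND (0.68), ETS1 (1.23) and EHF (0.75) rose, while FOSL2 (-0.45) and KLF5 (-0.52) fell. FOSB, JUN, JUNB, ETS2 and POU2F1 were not called. A link between these factor genes and the promoter letters was not tested.

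Genes whose CPM followed the summed SPRR counts most closely over the 6 libraries included CXCL17, a mucosal chemokine, WFDC5, of the whey acidic protein inhibitors, DTX2, a Notch pathway ubiquitin ligase, and MAP2K3, a kinase upstream of p38. Likeness was the Euclidean distance between centred log2 CPM profiles, from 0.151 for CXCL17 to 0.238 for MAP2K3 among 12913 genes. Their log2 fold changes lay between 2.15 (WFDC5) and 2.35 (DTX2), around the 2.24 of the SPRR sum. This is a description of 6 libraries in 2 groups.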

How the data were processed

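Per the labels' protocols, TruSeq stranded mRNA libraries were made from 3 HMU and 3 PBS cultures and sequenced. The deposited read counts are whole numbers per gene. Per the file headers, the authors also deposited FPKM and TPM, which take transcript length and library depth into account. GRCh38, HISAT2 2.1.0, StringTie 2.1.3b, Trimmomatic 0.38 and FastQC 0.11.7 appear in the submitters' processing notes. No source used here states the counting tool, annotation release or use of strand. Treated columns are headed HMO and were taken as HMU, since they are the only treated columns and carry the same replicate numbers.

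The count model was edgeR 4.0.16 in R 4.3.3 (filterByExpr, TMM factors from 0.893 to 1.11, glmQLFit with the installed defaults, glmQLFTest). Standard errors come from the F statistic (log2 fold change over its square root), and CPM is TMM-scaled. The fit was tested on simulated counts, drawn from the PBS means with the same spread setting for every gene. They held far fewer changed genes than were called here, and no library set apart like HMU replicate 2. DESeq2 1.42.0, limma 3.58.1 and other scalings, filters and thresholds were alternatives, and the bias-adjusted deviance fit was added after seeing the data. Ratios between members used counts plus 0.5. Precision rests on 3 cultures per group and the spread between them, at 64292566 to 65957584 counts per library.

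Members and lists were chosen with earlier results of these data known. Besides the members, the text names, for each pathway list, the 2 called genes that changed most among those reaching 1 CPM in a group, the 5 genes most like the SPRR sum, and the leading gene of each marker list. Others, such as TGM1, were named after their values were seen. Some genes that these rules pick are not reported here.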

Additional observations from a re-analysis of the deposited data

How the results depend on the processing

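All 10 members were higher and 0 lower under every alternative with a value for them: DESeq2, no filter on low counts, RLE scaling, library sizes only, the replicate block, the bias-adjusted deviance fit, an adjusted p under 0.01, log2(TPM + 1), log2(TPM + 0.1), log2(FPKM + 1) and leaving out each library. The exception was a filter of 1 CPM in 3 libraries, which removed SPRR4 and left 9. Without each library in turn the log2 fold change of the family sum ran from 2.14 to 2.29 and that of the SPRR2 sum from 4.50 to 4.69, and with library sizes only they were 1.96 and 4.34. SPRR2F was 3.60 and SPRR4 0.93 on log2(FPKM + 1), where the added 1 shrinks the folds of low genes, and without each library in turn they ran from 5.96 to 6.19 and from 3.77 to 4.39.

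Over all genes, 4457 were higher and 4487 lower (49.8% of the calls higher). Scaling by library size alone gave 2413 higher and 7855 lower (23.5%), with a shift of the median log2 fold change to -0.28. The numbers were 1975 and 9153 on log2(TPM + 1), 1965 and 9126 on log2(TPM + 0.1) and 2441 and 7612 on log2(FPKM + 1). At an adjusted p under 0.01, 2902 were lower. Leaving out each library gave 3334 to 5426 higher and 3290 to 5481 lower. In the factor list 8 were higher and 14 lower on log2(TPM + 1) and on log2(TPM + 0.1). Without each library 11 to 16 were higher and 7 to 10 lower. Against 0 lower, 1 LCE gene and 1 transglutaminase were lower with library sizes only, log2(TPM + 1), log2(TPM + 0.1) and log2(FPKM + 1), and 0 to 1 LCE genes without each library. Of the other complex genes 2 were lower at an adjusted p under 0.01 and 2 to 4 without each library. The cause of these moves was not tested.

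Same-numbered HMU and PBS libraries did not deviate together (correlations of -0.019, 0.035 and 0.048), which gave no sign of a pairing by number. With so few libraries, and HMU replicate 2 apart from the others, these values cannot exclude a pairing. The replicate block gave 4173 higher and 4250 lower genes, 10 members higher and a family log2 fold change of 2.24. The 2 shares that did not shift changed sign by small amounts: SPRR1A by counts was -0.14 percentage points (HMU minus PBS) but 0.211 without HMU replicate 2 and 0.295 without PBS replicate 3, and by TPM 0.197 but -0.243 without HMU replicate 3 and -0.125 without PBS replicate 1. Without each library in turn it ran from -0.590 to 0.295 by counts and from -0.243 to 0.617 by TPM. SPRR2G was 0.012 by counts and 0.016 by TPM but -0.0056 and -0.0017 without PBS replicate 2, with ranges of -0.0056 to 0.029 and -0.0017 to 0.035.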
